A study of Mus musculus with 24 samples.

Results

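Untreated Eμ-Myc;Bcl2 mouse lymphomas were ranked by their level of Cdkn1a, the gene of the cyclin-dependent kinase inhibitor p21, and the 6 highest were set against the 6 lowest of the 12 untreated arrays. The series holds 24 arrays in all. The groups were selected on measured values: log2 expression of the single-gene Cdkn1a probe set with the highest mean. They are not groups of the study, and the Cdkn1a values below describe the choice and support nothing. In the high p21 group Cdkn1a was 12.12 in lymphoma 2949, 11.34 in 6054, 11.01 in 7050, 10.99 in 5766, 10.79 in 1467 and 10.78 in 5560. In the low p21 group it was 10.25 in lymphoma 3769, 10.02 in 403, 9.88 in 3802, 9.71 in 3594, 9.52 in 1570 and 8.75 in 2581. The values just inside and just outside the boundary were therefore 10.78 and 10.25, a gap smaller than the span within either group. The other Cdkn1a probe set put the same 6 lymphomas above the rest, at 7.81 to 11.51 against 6.54 to 7.42.

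The arrays measured total RNA of primary B-cell lymphomas taken from lymph nodes of mice whose B-lineage cells express a Myc transgene throughout. Cells of all 12 lymphomas, in both groups, had been transduced with the apoptosis inhibitor Bcl2 from the retrovirus MSCVpuro, selected with Puromycin and grown over gamma-irradiated NIH 3T3 feeder cells, a mouse fibroblast line. None of the arrays compared first had received drug; the partner array of each lymphoma came after 5 days with 0.05 µg/ml Adriamycin (ADR, doxorubicin), which damages DNA; the labels mark those arrays as senescence-induced. The labels give no genotype at Trp53 or Cdkn2a and no age of the animals, and each lymphoma is 1 array per condition.

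The transcription factor p53 is held low in unstressed cells by Mdm2, itself a p53 target, and Myc raises p53 through Arf, a product of Cdkn2a that blocks Mdm2. Once stabilised, p53 binds response elements near genes of cell-cycle arrest, cell death, DNA repair and metabolism, of which Cdkn1a is the textbook example. The p21 protein inhibits cyclin-dependent kinases and so keeps the RB family active, which represses genes of S phase and mitosis. Loss of the Arf-p53 axis is common in lymphomas of this model, and Bcl2 relieves the pressure to lose it by blocking death.

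Expression was compared for 18192 genes, with Cdkn1a left out, by limma with Benjamini-Hochberg adjustment and a call at an adjusted p under 0.05. The B-cell label was borne out by Cd79a, a chain of the B-cell receptor complex, at 9.75 to 11.31 over the 12 untreated arrays, and by Cd79b at 10.38 to 11.69; array medians lay between 4.38 and 4.47. A fold is given only where both group means lay above 4.47, the highest array median, because values near the floor of such arrays are compressed. Any pair of untreated arrays correlated at 0.945 to 0.991, with 0 identical pairs. In bulk RNA, fewer cells of a type and less RNA per cell cannot be told apart.

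The p53 targets other than Cdkn1a were mostly higher in the high p21 group before any drug. Over 3 lists with 58 measured p53 targets, 41 were higher and 17 lower, with a median difference of 0.33 on the log2 scale against -0.02 over all genes. Unadjusted p was under 0.05 for 23 targets that were higher and 3 that were lower. Over all genes, 8.09% were higher and 11.5% lower at that p. Zmat3 and Dcxr were called higher, where 0.104% of all genes were called higher and 0.104% called lower. The median over the 58 targets was 0.42 among the 7 lymphomas whose treated arrays carry DOX in the file names of the labels, and 0.34 among the 5 with sen. The DOX set holds 4 lymphomas of the high p21 group and 3 of the low, and the sen set holds 2 and 3. Whether these names mark a batch is not stated. With the naming set in the fit, Zmat3 and Dcxr were not called (adjusted p = 0.0683 for each by limma). Nor was either called when single lymphomas such as 2949 or 2581 were left out.

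Among the targets that arrest the cycle or feed back on p53, 14 of 18 were higher in the high p21 group, with a median difference of 0.48. Zmat3 encodes a zinc finger protein that binds RNA and acts downstream of p53. Its untreated levels ran from 9.43 over a median of 10.13 to 11.04 in the high p21 group, and from 8.39 over 8.74 to 9.46 in the low group. The groups met only at lymphoma 5560 on the high side and 1570 on the low side. Zmat3 rose 2.61-fold (log2 difference 1.39, SE 0.24, adjusted p = 0.0462 by limma).

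Phlda3, which dampens the kinase Akt, did not overlap between the groups: its lowest, median and highest levels were 7.65, 8.52 and 9.61 in the high p21 group and 6.44, 7.09 and 7.57 in the low group. The log2 difference of 1.40 (SE 0.29) was not called (adjusted p = 0.0594 by limma). Groups that did not overlap were found for 0.566% of all genes with the high p21 group above and for 1.08% with it below. Ccng1, the cyclin G that is among the steadiest p53 targets, had levels of 11.10, 11.54 and 12.12 in the high group and 9.92, 10.44 and 11.11 in the low group. The groups again met at lymphomas 5560 and 1570. The difference was 2.11-fold (log2 1.08, SE 0.22, adjusted p = 0.058 by limma), and all 3 of its probe sets had the same direction. Mdm2, the ubiquitin ligase that degrades p53, ran over 8.93, 9.40 and 10.56 in the high group and 8.33, 8.73 and 9.06 in the low group. Its log2 difference was 0.85 (SE 0.26, adjusted p = 0.115 by limma), and it rested most on lymphomas 2949 and 6054, at 10.56 and 10.01, where no other untreated array passed 9.49.

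Sesn2, a sestrin that restrains growth signalling, differed by 0.63 (adjusted p = 0.137 by limma) and Gtse1, a microtubule protein that feeds back on p53, by 0.59 (adjusted p = 0.207). Of the 18 targets, 4 were lower, 0 of them at an unadjusted p under 0.05. Trp53inp1, a stress-induced p53 cofactor, was higher by 0.37 and the polo-like kinase gene Plk2 by 0.61, with adjusted p of 0.522 and 0.553 in limma. For both, 1 of 2 probe sets went the other way.

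The p53 targets of cell death were higher in 10 of 17 cases, with a median difference of 0.30, in cells that all carried retroviral Bcl2. Pmaip1 encodes Noxa, a BH3-only protein that promotes death by binding Mcl1, and differed by 1.26 (SE 0.32, adjusted p = 0.0826 by limma), from 9.32 ± 0.59 in the low group to 10.58 ± 0.64 in the high group (SD, n = 6 each). Ei24, a p53-induced gene of the endoplasmic reticulum, differed by 0.68 (adjusted p = 0.0834), the death receptor gene Fas by 1.09 (adjusted p = 0.127), and Bbc3, which encodes the BH3-only protein Puma, by 0.53 (adjusted p = 0.225 by limma). All 4 overlapped between the groups. Tnfrsf10b, a death receptor gene, stood at -0.24, but its levels of 3.89 to 4.47 were at the floor of the arrays. Bax is represented by no probe set of its own here and was not analysed.

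Among the targets of DNA repair and metabolism, 17 of 23 were higher, with a median difference of 0.29. Dcxr, a reductase of dicarbonyls and xylulose, did not overlap between the groups: 8.13, 8.75 and 9.24 against 6.90, 7.72 and 7.94. It rose 2.21-fold (log2 difference 1.15, SE 0.20, adjusted p = 0.0462 by limma). Psrc1, a microtubule-associated p53 target, showed the largest gap of the 58 targets. Its levels were 9.72, 10.95 and 11.88 in the high group and 8.20, 8.96 and 9.75 in the low group, a 3.57-fold difference (log2 1.83, SE 0.33) with an adjusted p of 0.0501 by limma; 5560 and 1570 overlapped here too. Ercc5, a nuclease of nucleotide excision repair, ran over 7.03, 8.18 and 9.16 against 6.25, 6.59 and 7.11, with 5 of the 6 high lymphomas above every low one (log2 difference 1.43, adjusted p = 0.0618). Zfp365, a p53-induced gene of genome stability, differed by 1.76 (adjusted p = 0.093 by limma), with its low group mean at the floor. Tap1, the peptide transporter of antigen presentation, differed by 0.62, with 2 of 4 probe sets going the other way. Mgmt, the alkyltransferase that reverses guanine methylation, went against the list at -0.60 (adjusted p = 0.143 by limma).

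**Figure D1:**
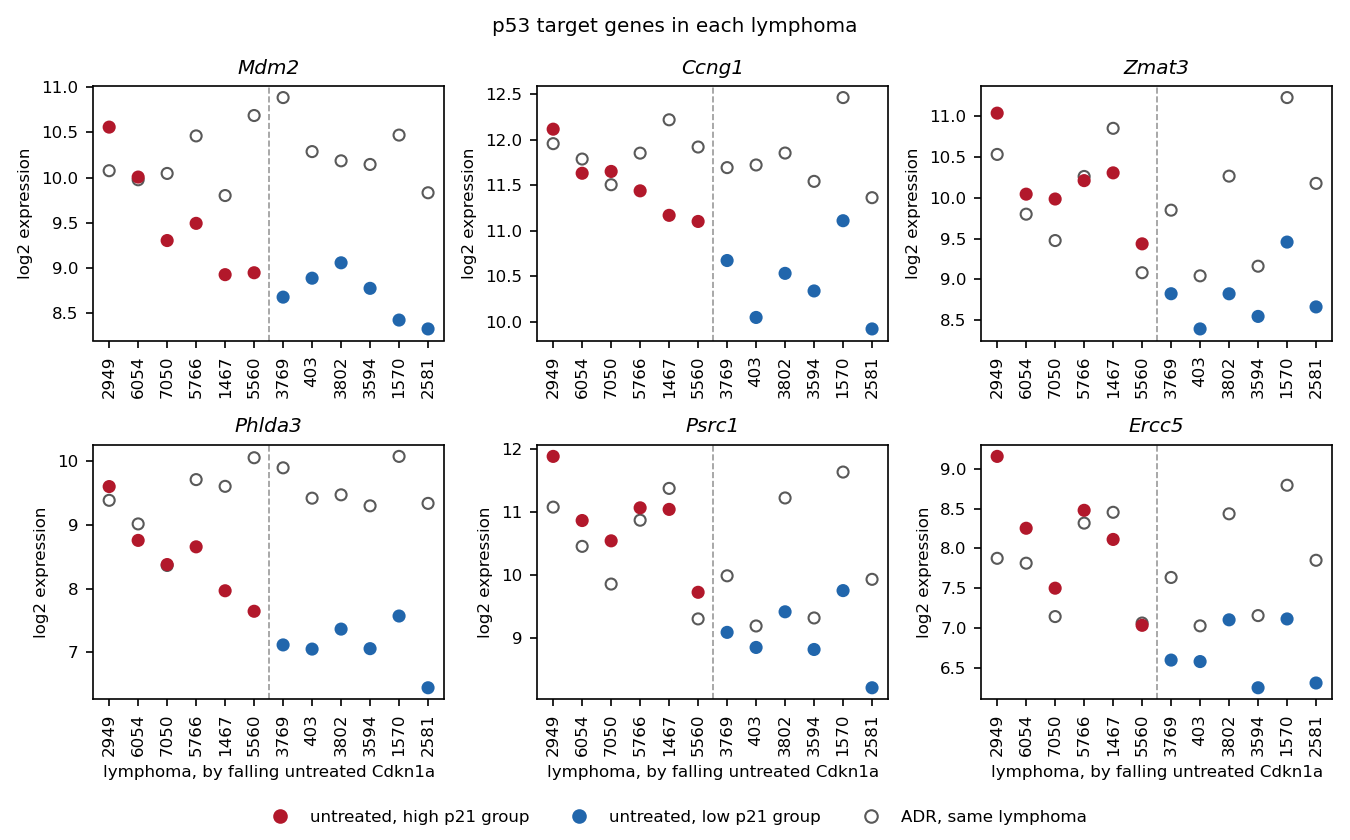
Each panel plots log2 expression of 1 p53 target for the 12 lymphomas in order of falling untreated Cdkn1a, with filled points for untreated arrays (red for the high p21 group, blue for the low) and open circles for ADR arrays of the same lymphomas. Filled points fall from left to right in steps that differ by gene (Mdm2 10.56 in 2949 against 8.33 in 2581), while ADR means are close on both sides of the dashed line (10.17 and 10.30 for Mdm2).

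Promoter sequence was read for these targets, since p53 is known to act through response elements in the DNA. The search covered 300 bases per start site, 250 upstream and 50 downstream, from the RefSeq promoter table of mouse build GRCm38.p6. It looked for the p53 response element as 2 p53 half-sites of 10 bases side by side, on both strands, with at most 2 mismatches and none at the core C and G of a half-site. A match was found for 6 of the 50 listed p53 targets that had a window (12%) and for 106 of 27025 genes (0.392%). The lists were made of genes already known as p53 targets, so the higher share among them says nothing about the groups compared here. The 4 sequences here are those of the ranking gene and of 3 targets with a match and unlike differences between the groups; the 20 bases of the match are in capitals, read 5′ to 3′ on the strand of the gene. They lie at chr17:29090908-29090967 on the plus strand (Cdkn1a), chr11:40755442-40755501 on the minus strand (Ccng1), chr10:67912686-67912745 on the minus strand (Zfp365) and chr9:66946276-66946335 on the plus strand (Rps27l).
Cdkn1a: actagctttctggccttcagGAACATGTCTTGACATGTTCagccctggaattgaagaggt
Ccng1: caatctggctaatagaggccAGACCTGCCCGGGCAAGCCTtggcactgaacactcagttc
Zfp365: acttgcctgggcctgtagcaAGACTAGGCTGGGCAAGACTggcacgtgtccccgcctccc
Rps27l: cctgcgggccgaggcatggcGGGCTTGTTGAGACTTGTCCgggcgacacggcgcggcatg
The other matches were in Cd80, Ckap2 and Gtse1. The matches of Cdkn1a, Ccng1 and Rps27l had 1 mismatch each and that of Zfp365 had 2. Ccng1 and Zfp365 differed between the groups by 1.08 and 1.76, whereas Rps27l, a ribosomal-like p53 target, stood at 12.04 ± 0.12 against 11.96 ± 0.15 (SD, n = 6 each), a log2 difference of 0.09 (adjusted p = 0.633 by limma). A match describes letters only, and no match says only that these letters are not in this window.

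The ADR arrays of the same lymphomas were not used in the ranking. On them the p53 targets showed no offset in that direction. Of the 58 targets, 14 were higher in the lymphomas that had high untreated p21, and the median difference was -0.17 against -0.0045 over all genes. Unadjusted p was under 0.05 for 1 target that was higher and 3 that were lower, while 4.8% of all genes were higher and 5.5% lower at that p. Of all genes, 0 were called on the ADR arrays (0%). Groups did not overlap there for 0.225% of genes with the lymphomas of high untreated p21 above and for 0.319% with them below.

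On the ADR arrays some single targets had like levels in both groups. Others, Dcxr and Phlda3 among them, were lower on average in the lymphomas of high untreated p21. Mdm2 on ADR arrays was 10.17 in the lymphomas of high untreated p21 and 10.30 in those of low untreated p21. Ccng1 was 11.87 against 11.77, Zmat3 10.00 against 9.95 and Ercc5 7.78 against 7.82. From untreated to ADR, Phlda3 went up by 0.86 on average in the high p21 group, in 4 of 6 lymphomas, and by 2.48 in the low group, in 6 of 6. Dcxr went up by 0.29 in 3 of 6 and by 1.92 in 6 of 6, and Psrc1 by -0.37 in 1 of 6 and by 1.19 in 6 of 6. The untreated arrays that chose the groups enter these changes, so the changes are descriptive and their difference was not tested. Markers of other cells rose as well. Col1a2, a fibroblast marker, went up by 2.87 on average in the high p21 group and by 3.56 in the low group. Adgre1, a macrophage marker, went up by 1.67 and 2.71, and both genes rose in 6 of 6 lymphomas of each group. How far RNA of other cells enters the target levels on ADR arrays was not tested.

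Upstream of p53, 0 of 25 regulators of p53 and Arf were called, where 0.104% of all genes were called in each direction. Of the 25, 11 were higher and 14 lower (median difference -0.03). Unadjusted p was under 0.05 for 5 that were higher and 2 that were lower, against 8.09% and 11.5% of all genes. Sirt1, a deacetylase that acts on p53, stood at 6.47 ± 0.86 in the high group and 7.74 ± 0.38 in the low group (SD, n = 6 each), a log2 difference of -1.27 (adjusted p = 0.0925 by limma). Ppp1r13l encodes iASPP, an inhibitor of p53, and differed by 0.52 (adjusted p = 0.099 by limma), with 3 of 4 probe sets in that direction. Cdkn2a, which encodes Arf and p16, separated only single lymphomas: it was 6.82 in lymphoma 403 and 5.70 in 3594, both of the low p21 group, and 3.03 to 3.79, near the floor, in the other 10. The same 2 lymphomas had Mdm2 at 8.89 and 8.78. Trp53 likewise lacks a probe set of its own and was not analysed here.

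Genes of ribosome biogenesis and other Myc targets were lower in the high p21 group as a body. Of 34 measured, 33 were lower, with a median difference of -0.49. The member that was not lower was Hspe1, a mitochondrial chaperonin, at 0.01. At an unadjusted p under 0.05, 23 were lower, against 11.5% of all genes. At the adjusted threshold 0 of the 34 were called, where 0.104% of all genes were called in each direction. Fbl, the methyltransferase fibrillarin of the nucleolus, did not overlap between the groups: 10.61, 11.16 and 11.34 in the high group against 11.43, 11.61 and 11.85 in the low group (log2 difference -0.56, SE 0.13, adjusted p = 0.0698 by limma). Eif4a1, a helicase of translation initiation, did not overlap either, at 11.41, 11.97 and 12.30 against 12.39, 12.44 and 12.61 (log2 difference -0.53, adjusted p = 0.0771). Gnl3, the nucleolar GTPase nucleostemin, differed by -0.81 (adjusted p = 0.0768 by limma).

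Myc, whose probe set does not tell transgene from endogenous transcripts, was 10.22, 10.88 and 11.23 in the high p21 group and 11.02, 11.31 and 12.04 in the low group. Its log2 difference of -0.57 (SE 0.20) was not called (adjusted p = 0.157 by limma). The list mean ranged from 9.25 in lymphoma 2949 to 10.18 in 7050 in the high group and from 10.02 to 10.40 in the low group, so that 7050 alone of the high group reached the low one. The median difference held within both naming sets (-0.42 for DOX, -0.48 for sen). On ADR arrays it was -0.19, with 1 member higher and 1 lower at an unadjusted p under 0.05.

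**Figure D2:**
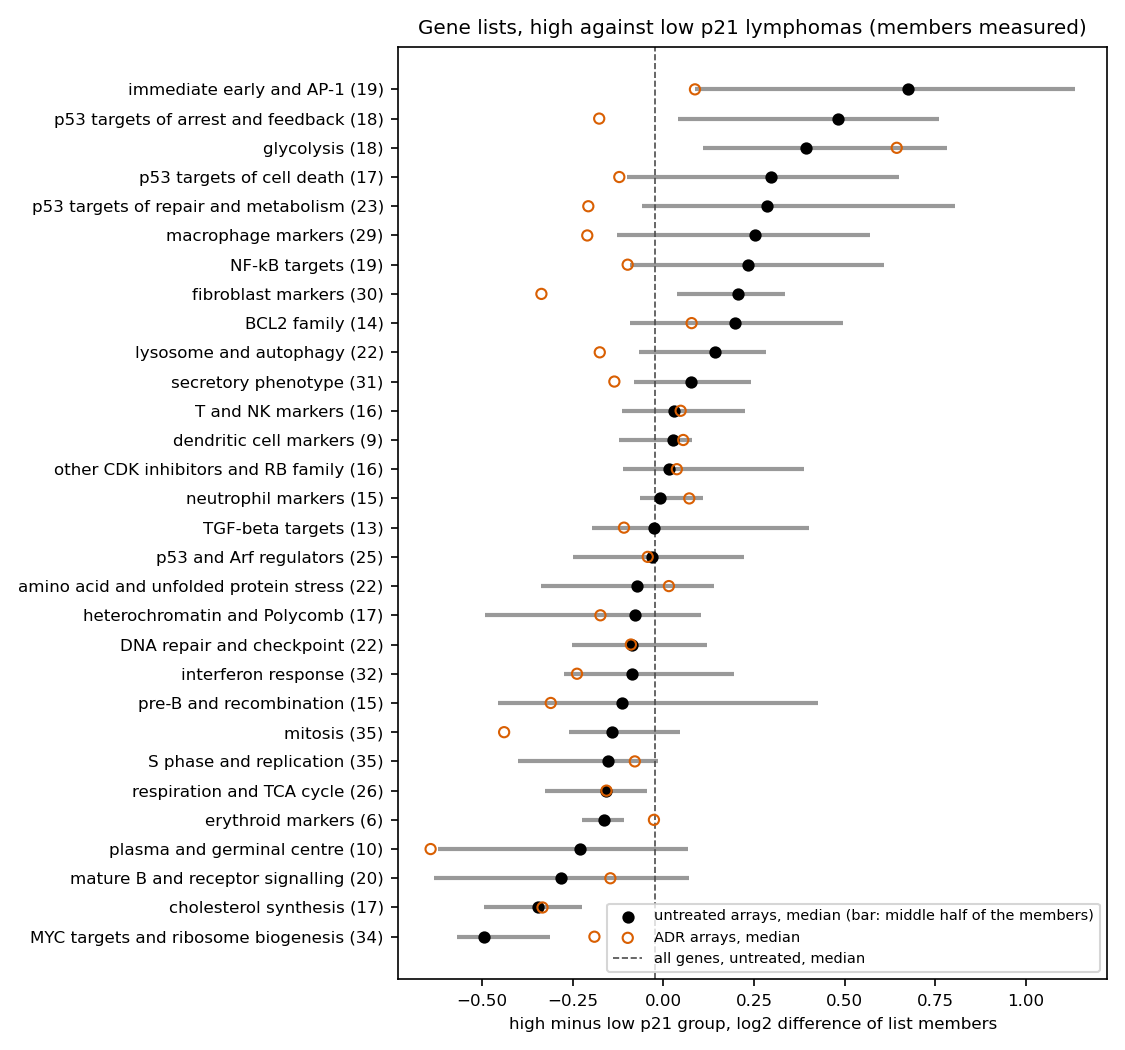
The median log2 difference between the high and the low p21 group is plotted for each gene list, with filled points for untreated arrays, bars from the lower to the upper quartile of the members, open circles for ADR arrays and a dashed line at the median of all genes (-0.02). The lists of p53 targets (0.29 to 0.48) lie right of the line in untreated arrays and left of it in ADR arrays, and among the untreated points Myc targets lie furthest left at -0.49.

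Genes of cell division differed little. Over 35 mitosis genes the median difference was -0.14, with 22 lower and 13 higher, and Birc5, the survivin gene, was the single member with an unadjusted p under 0.05 (log2 difference -0.43, adjusted p = 0.137 by limma). Mki67, the proliferation antigen, was 9.61, 10.85 and 11.01 in the high group and 10.67, 10.91 and 11.06 in the low group (log2 difference -0.24, adjusted p = 0.585 by limma). The groups overlapped and lymphoma 5560 was the lowest of the 12. That lymphoma also had the lowest mitosis mean, 8.42, where the others lay between 8.89 and 9.65, and without it the median difference over the mitosis genes was 0.04.

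Genes of S phase and DNA replication were lower in 27 of 35 cases, with a median difference of -0.15. Cdt1, which licenses replication origins, differed by -0.72 (SE 0.18, adjusted p = 0.0825 by limma) and Rrm1, the large subunit of ribonucleotide reductase, by -0.59 (adjusted p = 0.0826), with 2 of 3 probe sets in that direction. Mcm2, a subunit of the replicative helicase, differed by -0.37 (adjusted p = 0.474 by limma). The S phase difference turned between the naming sets: its median was 0.18 within DOX and -0.78 within sen. The sen set has only 2 lymphomas of the high group, 1467 and 5560. Their S phase means, 8.84 and 8.42, were the lowest of all untreated arrays. On ADR arrays the mitosis median was -0.44, with 32 of 35 genes lower in the lymphomas of high untreated p21 and none at an unadjusted p under 0.05.

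Other regulators of the cycle, inhibitors and drivers together, gave a mixed picture. Of 16 other inhibitors, cyclins, kinases and RB family genes, 8 were higher and 8 lower, with a median difference of 0.01. Cdkn2c, Cdkn1b and E2f1, which encode the inhibitors p18 and p27 and an S phase activator, differed by -0.015, -0.0052 and -0.037 (adjusted p of 0.979, 0.995 and 0.948 in limma), with probe sets of the last 2 in disagreement. The other Cdkn1b probe set differed by 1.09 and the E2f1 probe set of largest variance by 0.34 (adjusted p of 0.134 and 0.466 in limma). Rbl2, the pocket protein p130 of quiescent cells, was 7.69, 8.28 and 8.91 in the high group and 7.24, 7.38 and 7.76 in the low group (log2 difference 0.80, SE 0.19, adjusted p = 0.0698 by limma). Cdk4, a kinase that p21 can bind and that also counts as a Myc target, differed by -0.46 (adjusted p = 0.12). Lmnb1, the lamin B1 gene whose loss marks senescent cells, did not overlap between the groups, at 7.45, 8.29 and 9.27 against 9.38, 9.55 and 9.61 (log2 difference -1.18, SE 0.26, adjusted p = 0.067 by limma).

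**Figure D3:**
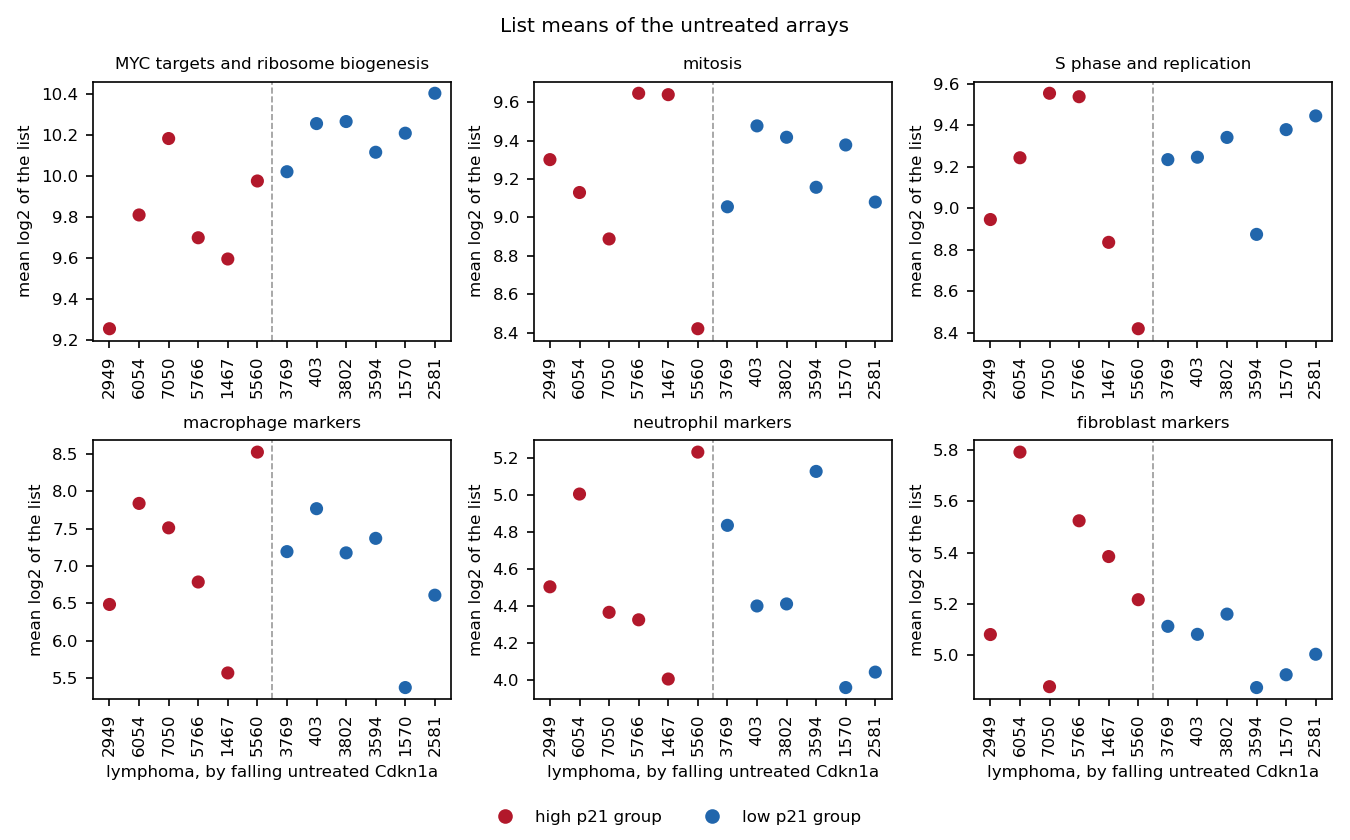
Mean log2 expression of 6 gene lists on the untreated arrays is plotted for the 12 lymphomas in order of falling Cdkn1a, red for the high and blue for the low p21 group. Means of Myc targets are 9.25 to 10.18 in the high group and 10.02 to 10.40 in the low group, while mitosis, macrophage and neutrophil means overlap almost wholly.

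Macrophage content, read from 29 marker genes, varied between lymphomas far more than between the groups. Of the markers, 18 were higher and 11 lower in the high p21 group, with a median difference of 0.25. In each direction 0.104% of all genes were called, and 0 of these 29 markers. The log2 of their summed level ran from 12.86 to 15.70 in the high group and from 12.81 to 14.87 in the low group. Lyz1, a lysozyme gene of myeloid cells, was 8.49, 12.66 and 13.71 in the high group and 6.92, 12.58 and 13.35 in the low group. Each group thus had 1 lymphoma with little Lyz1, 1467 on the high side and 1570 on the low side, and the log2 difference was 0.57 (SE 1.13, adjusted p = 0.828 by limma). Adgre1, which encodes a surface receptor that defines macrophages, was 5.22, 7.06 and 9.87 against 4.31, 7.31 and 9.72, a log2 difference of -0.02 (SE 0.96).

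Other macrophage genes went both ways. Fcer1g, an Fc receptor chain, differed by 1.98 and Aif1, a macrophage calcium-binding protein, by 1.56, whereas Lgmn, a lysosomal protease, differed by -0.89 (adjusted p of 0.246, 0.204 and 0.206 in limma). Cd14, the lipopolysaccharide co-receptor, differed by -2.15 with an SE of 1.17, Csf1r, the receptor of a macrophage growth factor, by -0.76 (SE 1.01) and Lyz2 by 0.45 (SE 1.23). The macrophage median was -0.24 within the DOX set and 0.41 within sen. With the macrophage mean of each array in the fit, the median over the p53 targets was 0.34 and that over the Myc targets -0.53. Without it they were 0.33 and -0.49. The macrophage mean itself had a median of 7.15 in the high group and 7.18 in the low group. Whether macrophage RNA enters these differences was not tested.

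Neutrophil markers were uneven, with many near the floor, and a floor reading need not mean that the cells were absent. The log2 of their summed level ran from 8.19 to 11.45 in the high group and from 7.98 to 10.65 in the low group. Of 15, 8 were at or under the floor on all 12 arrays, S100a9, Elane and Mpo among them, and the median difference was -0.01. S100a8, a calprotectin subunit, was 3.97, 5.18 and 8.72 in the high group and 3.59, 4.57 and 8.74 in the low group (log2 difference -0.05, SE 1.01). Dendritic cell markers had a median difference of 0.03 over 9 genes and erythroid markers -0.16 over 6, of which 4 were at the floor on all arrays.

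Fibroblast markers, read because the cells grew over a fibroblast feeder layer, leaned toward the high p21 group. Of 30, 25 were higher and 5 lower, with a median difference of 0.20. At an unadjusted p under 0.05, 5 were higher, against 8.09% of all genes. In each direction 0.104% of all genes were called, and 0 of these 30 markers. The log2 of their summed level ran from 12.24 to 13.25 in the high group and from 12.19 to 12.63 in the low group, with Col3a1, Lum and Pdgfra among 7 markers at the floor on every array. Fn1, fibronectin, differed by 1.40 (adjusted p = 0.124 by limma), Bgn, the matrix proteoglycan biglycan, by 1.22 (adjusted p = 0.157), Lox, a collagen cross-linking enzyme, by 1.15 (adjusted p = 0.137) and Col1a2, a collagen chain, by 0.83 (adjusted p = 0.256 by limma; 2 of 3 probe sets). With the fibroblast mean of each array in the fit, the p53 median was 0.31 and the Myc target median -0.44, but the median of the p53 targets of repair and metabolism was 0.12 in place of 0.29, and 0 genes were called.

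Across all genes, 19 were called higher and 19 lower in the high p21 group, all with adjusted p between 0.0369 and 0.0484 in limma. This count is close to the threshold. It was 0 when lymphoma 2949, 6054, 5766, 3769, 403, 3802, 3594 or 2581 was left out, 0 with the naming set as a block and 0 within sen, whereas it was 1055 within DOX, 549 without 7050, 127 without 1467, 120 without 1570 and 1055 without 5560. With Cdkn1a as a continuous level in place of the groups, 2.94% of genes were called rising and 4.02% falling with it, and 33 of the 38 genes called between the groups were among them.

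Ly6d, a surface antigen of early B-lineage cells, gave the largest fall among the called genes. It was 6.19, 7.04 and 9.17 in the high group and 9.25, 10.39 and 10.95 in the low group, 8.41-fold lower (log2 difference -3.07, SE 0.46, adjusted p = 0.0369 by limma). The groups did not overlap, although 5560 on the high side and 3802 on the low side were close. The gap was as wide on the ADR arrays, at 6.67 against 9.97 (log2 difference -3.30). Klf2, a zinc finger factor of lymphocyte quiescence and trafficking, fell 3.00-fold, from 8.77 ± 0.30 in the low group to 7.18 ± 0.56 in the high group (SD, n = 6 each). Pkp3, a desmosomal plakophilin, fell 2.62-fold and kept its gap on ADR arrays (log2 differences -1.39 and -1.33).

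The other 9 of the 12 largest falls were Aunip, a partner of Aurora A kinase, the splicing factor gene U2af1, the RNA methyltransferase gene Nsun5, Polr2j, a subunit of RNA polymerase II, the nuclear export factor gene Cse1l, the tubulin cofactor gene Tbcc, Aimp2, a scaffold of tRNA synthetases, the mitochondrial ribosome factor gene Mettl17 and the phosphatidylinositol carrier gene Pitpnb. Their log2 differences lay between -0.95 for Aunip and -0.62 for Pitpnb, and none overlapped between the groups.

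Pim2, a survival kinase that often works beside Myc in B-cell lymphoma, gave the largest rise among the called genes. It was 10.00, 10.78 and 11.37 in the high group and 7.61, 8.20 and 9.95 in the low group, 4.37-fold higher (log2 difference 2.13, SE 0.37, adjusted p = 0.0462 by limma). The groups did not overlap, though 7050 at 10.00 and 1570 at 9.95 came close. Plek, the protein kinase C substrate pleckstrin of blood cells, rose 2.73-fold, Retreg1, a receptor for autophagy of the endoplasmic reticulum, 2.55-fold, and Stx6, a syntaxin of endosomal transport, 2.52-fold (5 of 6 probe sets). Tet2, a dioxygenase that oxidises methylcytosine and is often mutated in blood cancers, rose 2.19-fold, from 7.07 ± 0.32 to 8.20 ± 0.42 (SD, n = 6 each), but its probe set of largest variance, at a log2 difference of 1.98, was not called (adjusted p = 0.0571 by limma).

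Abtb2 rose by 1.75 on the log2 scale from a low group mean at the floor (3.97), with 2 of 3 probe sets in that direction, and the lymphotoxin gene Lta by 0.97 from 4.07. The remaining large rises were Aldh6a1, a dehydrogenase of valine breakdown (2.28-fold), the ubiquitin-conjugating enzyme gene Ube2r2 (2.17-fold), Mgat5, a glycosyltransferase of N-glycan branching (1.73-fold, 2 of 3 probe sets), and Slc35a2, the UDP-galactose transporter (1.70-fold, 4 of 6 probe sets).

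The called genes mostly kept their direction after drug. Of 38, 37 had the same direction on the ADR arrays (97.4%), and 18 did so with an unadjusted p under 0.05 (47.4%); over all genes these shares were 65.8% and 9.14%. The exception was Dcxr, a p53 target, at -0.48 on ADR arrays. Of the 299 genes whose groups did not overlap before drug, 276 kept the direction (92.3%). The arrays of a lymphoma share their tumour, so these shares describe the same 12 lymphomas and are no independent replication.

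**Figure D4:**
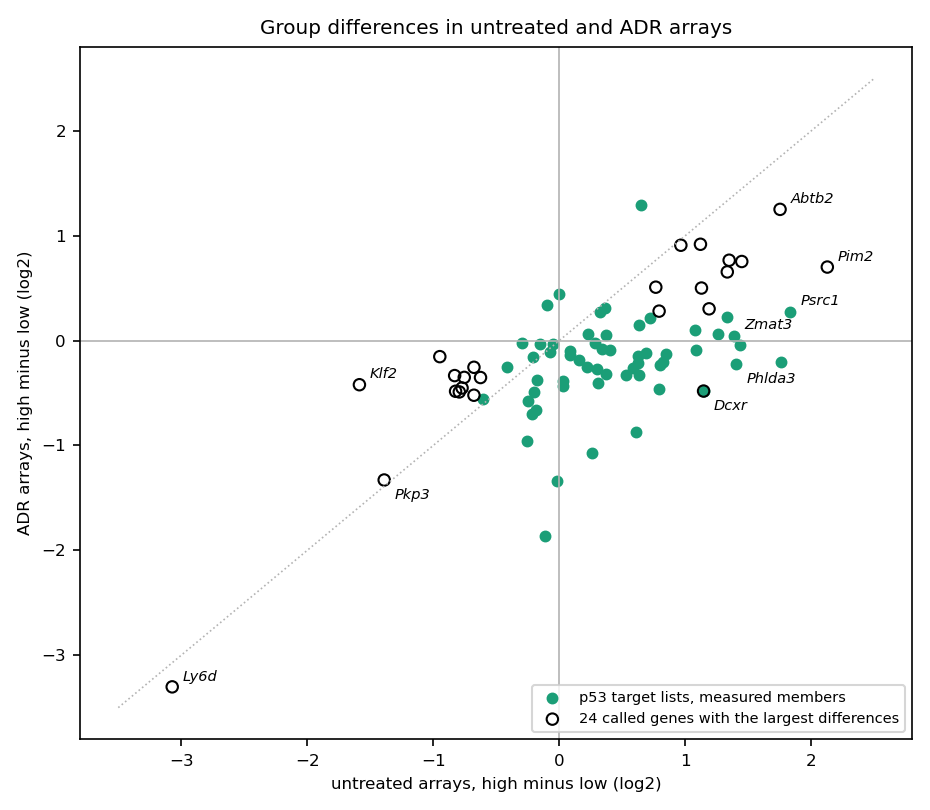
For each gene the log2 difference between the high and the low p21 group on untreated arrays (x axis) is plotted against that on ADR arrays (y axis), with filled points for the measured p53 targets, open circles for the 24 called genes with the largest differences and a dotted line of equal values. Ly6d (-3.07 and -3.30) and Pkp3 (-1.39 and -1.33) lie near the dotted line, while p53 targets with large untreated differences, such as Phlda3 (1.40 and -0.23), lie near 0 on the y axis.

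Markers of T and NK cells showed no common direction: 9 of 16 were higher and 7 lower in the high p21 group, with a median difference of 0.03. At an unadjusted p under 0.05 there were 2 in each direction, against 8.09% of all genes higher and 11.5% lower. In each direction 0.104% of all genes were called, and 0 of these 16 markers. Single members had wide differences with overlapping groups. Cd5, a scavenger receptor of T cells and of a B-cell subset, was 6.47, 9.59 and 10.12 in the high group and 3.64, 4.84 and 6.69 in the low group, a 13.7-fold difference (log2 3.78, SE 0.79) that was not called (adjusted p = 0.0594 by limma). Lymphomas 2949, 6054, 7050 and 5766, the 4 with the most Cdkn1a, had Cd5 at 9.49 to 10.12, while 1467 and 5560 at 6.47 and 6.85 overlapped with low group lymphoma 3802 at 6.69. These 4 are also all the DOX-named lymphomas of the high group; the difference was 5.05 within DOX and 1.46 within sen. On ADR arrays it was 4.02.

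Cd28, a costimulatory receptor, differed by 3.53 (adjusted p = 0.0942 by limma), with a range of 2.91 to 9.48 within the high group and 3802 of the low group at 5.49, and Cd2, an adhesion receptor, by -2.06 (adjusted p = 0.174). Cd3e and Cd3d, chains of the T-cell receptor complex that define T cells, stayed at 4.80 to 5.49 and 4.00 to 4.76 over all 12 untreated arrays, close to the array median, and Cd3g was at the floor on every array.

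B-cell genes leaned toward the low p21 group. Of 20 genes of mature B cells and receptor signalling, 14 were lower in the high group, with a median difference of -0.28 (-0.38 within DOX, -0.25 within sen). At an unadjusted p under 0.05, 6 of the 20 were lower, against 11.5% of all genes. In each direction 0.104% of all genes were called, and 0 of these 20. S1pr1, the receptor that lets lymphocytes leave tissue and a known target of Klf2, was 4.26, 4.55 and 6.85 against 6.57, 7.44 and 7.91 (log2 difference -2.13, SE 0.46, adjusted p = 0.0618 by limma), with an overlap between the groups. Spib, an Ets factor of B cells, differed by -1.25 and the kinase gene Btk by -0.69 (adjusted p of 0.102 and 0.0991 in limma). Among pre-B genes Ebf1, a factor of B-lineage commitment, differed by 0.93 and Bach2, a repressor that guards the B-cell program, by -1.01 (adjusted p of 0.0967 and 0.172). Of 10 plasma and germinal centre genes 7 were lower and 3 higher, with a median difference of -0.23 that turned between the naming sets (-0.71 within DOX, 0.27 within sen). Against that direction, Bcl6, the germinal centre repressor, differed by 1.00 (adjusted p = 0.0902 by limma).

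Of the BCL2 family, 8 of 14 genes were higher in the high p21 group, with a median difference of 0.20. At an unadjusted p under 0.05, 4 were higher, against 8.09% of all genes. Pmaip1, Bbc3, Bid and Bcl2l11 are among the 14 and were also counted above as p53 targets of cell death. Bcl2l1, which encodes Bcl-xL, differed by 0.71 (adjusted p = 0.0887 by limma) and Mcl1, the partner of Noxa, by 0.40 (adjusted p = 0.133), with 6 of 6 probe sets in that direction. Bcl2 itself stood at 12.03 ± 0.45 against 11.67 ± 0.51 (SD, n = 6 each; log2 difference 0.36, adjusted p = 0.474 by limma), and which probe sets read the retroviral copy was not tested. These 3 sizes depend on the probe set: with the one of largest variance for each gene, Bcl2 differed by 1.63 (adjusted p = 0.0813), Bcl2l1 by 0.15 (adjusted p = 0.818) and Mcl1 by 1.02 (adjusted p = 0.0606 by limma).

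Immediate early and AP-1 genes, which respond within minutes to growth signals and stress, had the largest median difference of the lists, 0.67. Of 19, 14 were higher, 9 of them at an unadjusted p under 0.05, against 8.09% of all genes. Egr1, a zinc finger factor of this class, was 6.18, 9.68 and 11.50 in the high group and 4.23, 5.84 and 6.94 in the low group, a 12.2-fold difference (log2 3.61, SE 0.77, adjusted p = 0.0603 by limma). Lymphoma 5560 was the only one of the high group among the low values. Dusp1, a phosphatase that shuts off MAP kinases, differed by 1.09 (adjusted p = 0.0849 by limma). Egr1 did not carry the offset into the ADR arrays, at 8.84 against 8.75. Klf2, called lower above, belongs to this list and went against it.

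Metabolic genes split. Of 18 genes of glycolysis, 14 were higher in the high p21 group, with a median difference of 0.39. At an unadjusted p under 0.05, 6 were higher, against 8.09% of all genes. On ADR arrays 16 were higher, with a median of 0.64, and 12 were so at that p, against 4.8% of all genes. Slc2a1, the glucose transporter Glut1, was 9.33, 10.96 and 11.87 against 8.23, 9.40 and 10.27 (log2 difference 1.44, SE 0.46, adjusted p = 0.127 by limma) and differed by 1.52 on ADR arrays. Slc2a3, a further glucose transporter, differed by 1.29 and Pfkp, a phosphofructokinase, by 1.08 (adjusted p of 0.12 and 0.133 in limma), while the lactate exporter gene Slc16a3 went the other way at -1.63 (adjusted p = 0.155). Within the naming sets the glycolysis median was 0.51 for DOX and -0.07 for sen.

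Of 26 genes of respiration and the citric acid cycle, 21 were lower, with small differences and a median of -0.16 (-0.17 within DOX, -0.16 within sen, -0.16 on ADR arrays). At an unadjusted p under 0.05, 10 were lower, against 11.5% of all genes. Uqcrc1, a core subunit of complex III, did not overlap between the groups at 10.12 ± 0.13 against 10.61 ± 0.21 (SD, n = 6 each; log2 difference -0.49, adjusted p = 0.062 by limma), and Sdha, of complex II, did not either (log2 difference -0.33, adjusted p = 0.0788), but its probe set of largest variance gave -0.014 (adjusted p = 0.981 by limma). Uqcrc2, a neighbour of Uqcrc1 in the same complex, went the other way at 0.43 (adjusted p = 0.137 by limma).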

How the data were processed

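Total RNA was made into biotinylated cRNA for Affymetrix arrays, per the labels' protocols. The deposited log2 values, 1 per probe set and array, came from RMA (background correction, normalization and summary) in Partek, per the submitters' processing notes; versions are not given in the sources used here. They were used as deposited, so fold changes of weakly expressed genes are understated. Of 45101 probe sets, 34945 had 1 gene symbol, 932 several, 9160 none and 64 were controls; each of 18193 genes is represented by the brightest of its single-gene probe sets, by mean over 24 arrays.

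Untreated arrays were ranked by Cdkn1a and the 6 highest compared with the 6 lowest with limma 3.58.1 in R 4.3.3 (lmFit, eBayes; Benjamini-Hochberg over 18192 genes). The ADR arrays were compared in the same groups in a separate fit. P-values measure the spread between lymphomas, and array noise that Cdkn1a shares with other genes of the same array was not tested. Of 675 members of 30 gene lists, 625 had a single-gene probe set; lists carry no test. The p53 element was searched with Python 3.11.15.

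The members and the lists were chosen with earlier results of these data known. Named genes are the 12 largest rises and falls among called genes whose groups did not overlap, and in each list the 3 members with the smallest p and the member with the smallest p in the other direction. A set of anchors was also named (Mdm2, Ccng1, Bbc3, Trp53inp1, Zmat3, Phlda3, Sesn2, Plk2, Cdkn2a, Cdkn2c, Cdkn1b, Mki67, Mcm2, E2f1, Myc, Bcl2, Lyz1, Lyz2, Adgre1, Csf1r, S100a8 and Col1a2; Bax and Ccnb1 could not be measured), and not every list member that met the rule is named: the rest are given only within their list's counts, a selection made with their values known. Cd79a, Cd79b and the Cd3 genes are cell type markers; Gtse1 and Rps27l are named for their promoter match. Alternatives covered the ranking, scaling, probe set choice, low genes, file naming set, variance prior, array weights, marker means and each lymphoma left out. The fit was tested on simulated data.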

Additional observations from a re-analysis of the deposited data

Results flagged for a closer look

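For each of 108 named genes and each condition, the lowest and highest lymphoma of each group of 6 was compared with its nearest neighbour, relative to the range of the group (Dixon's criterion). Chance flags about 1 in 20 groups; 31 of 432 were found here.

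Untreated macrophage genes gave the widest gaps. In the high p21 group lymphoma 1467 had Lyz1 at 8.49 where the next was 12.51, Lyz2 at 7.30 with the next at 11.46, and Fcer1g at 6.01 with the next at 8.61. In the low p21 group 1570 had Lyz1 at 6.92 and Lyz2 at 6.03, with the next at 11.68 and 10.90, and on its ADR array Lyz1 was 11.08 and Lyz2 9.88. Lymphoma 5560 of the high group stood high in untreated Lgmn, at 11.37, where the next was 9.68.

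The same lymphoma 5560 stood apart in genes of other groups. Its untreated Mki67 was 9.61, Uqcrc2 10.64 and Mgmt 5.70. On its ADR array Mgmt was 6.13, Egr1 11.07, Klf2 9.20, Plk2 11.21 and Slc2a3 7.22.

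Other untreated values that stood apart were Cdkn1b at 9.12 in 1467, Cd28 at 5.49 in 3802, Plk2 at 9.98 in 2581 and Uqcrc1 at 9.86 in 2949. On ADR arrays they were Birc5 at 5.22 in 2949, Cd2 at 9.58, Spib at 10.05 and Vegfa at 6.99 in 1467, and Pmaip1 at 9.26 in 7050, all of the high group. In the low group they were Cse1l at 10.14 and Egr1 at 7.10 in 3802, Ei24 at 10.96 and Slc2a3 at 9.77 in 1570, and Trp53inp1 at 10.90 and Cdkn2c at 8.58 in 403.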

How the results depend on the processing

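All 38 called genes kept their direction under each alternative run and with each lymphoma left out, except 1 of them when the probe set with the largest variance stood for each gene; the number called did not hold. Against 38 it was 1266 with Cdkn1a as a continuous level, 709 with 4 highest against 4 lowest, 67 with the probe set of largest variance, 141 with low genes left out, 0 with the naming set as a block, 1055 within DOX, 0 within sen, 7 with a trended robust prior, 737 with the macrophage mean and 0 with the fibroblast mean as a covariate, and 1425 with array weights. Chosen after seeing the data, it was 114 without 1467 and 1570 and 0 without 403 and 3594. Leaving out each lymphoma gave 0 to 1055 calls (0 to 31 on ADR arrays, where the fibroblast covariate gave 1). At an unadjusted p under 0.05 leaving out a lymphoma gave 2796 to 4370 genes.

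The median over the p53 targets lay between 0.28 and 0.42 over all alternatives and that over Myc targets between -0.57 and -0.38. List medians that moved by more than the spread between lymphomas were, within DOX, p53 targets of cell death 0.44, p53 and Arf regulators 0.13, other CDK inhibitors 0.18 and BCL2 family -0.0027 (0.049 with the fibroblast covariate). Within sen they were p53 and Arf regulators -0.17, S phase -0.78, plasma and germinal centre 0.27, erythroid -0.038 (0.14 with low genes left out), NF-kB 0.82, immediate early 1.01, TGF-beta 0.19 (0.12 with continuous Cdkn1a), secretory phenotype 0.53, DNA repair -0.44, heterochromatin -0.41 and glycolysis -0.074 (0.80 with 4 against 4).

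Signs of small differences turned. Adgre1 was 0.50 with 4 against 4, 0.64 within sen, 0.054 with the fibroblast covariate, 0.044 with array weights and 0.78 without 403 and 3594; S100a8 was 0.60 with continuous Cdkn1a, 0.56 with 4 against 4, 0.81 within sen, 0.71 with array weights and 0.51 without 403 and 3594. Hspe1 was -0.012 with the naming block, -0.23 within sen and -0.048 with the fibroblast covariate. Within DOX Lyz1 was -0.16, Lyz2 -0.43 and Mcm2 0.071; within sen Cd14 was 0.37, Plk2 -0.12 and Rps27l -0.039. Bcl2 was -0.016 with the fibroblast covariate and Trp53inp1 -0.30 with the probe set of largest variance. Leaving out each lymphoma gave -0.61 to 0.48 for Adgre1, -0.040 to 0.083 for Hspe1, -0.39 to 1.32 for Lyz1, -0.54 to 1.29 for Lyz2 and -0.69 to 0.59 for S100a8. Cdkn1b was 0.0087 with quantile normalization, 1.09 with the probe set of largest variance, 0.11 with the naming block, 0.18 within DOX, 0.026 within sen, 0.037 with the macrophage covariate and 0.031 without 403 and 3594. Cdkn2c was 0.064 with continuous Cdkn1a, 0.12 with 4 against 4, 0.043 within DOX, 0.030 with the macrophage covariate, 0.031 with array weights and 0.017 without 403 and 3594. E2f1 was 0.073 with continuous Cdkn1a, 0.31 with 4 against 4, 0.34 with the probe set of largest variance, 0.17 within DOX, 0.17 with array weights and 0.13 without 1467 and 1570. Leaving out each lymphoma gave -0.17 to 0.14 for Cdkn1b, -0.13 to 0.12 for Cdkn2c and -0.14 to 0.13 for E2f1. The cause of these shifts was not tested. The high and low groups could not be paired with each other because they hold different lymphomas, all titled with the same replicate number. The number of lymphomas limits the precision, and weak signals near the array floor are compressed.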

Other observations

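Chromatin genes were lower in the high p21 group in 12 of 17 cases. Their median difference was only -0.08 and turned between the naming sets (0.10 within DOX, -0.41 within sen). At an unadjusted p under 0.05, 5 of the 17 were lower, against 11.5% of all genes. Trim28, a corepressor that recruits histone methyltransferase to silenced loci, differed by -0.54 (adjusted p = 0.0826 by limma). Cholesterol synthesis genes were lower in 14 of 17 cases, with a median difference of -0.35 on untreated and -0.33 on ADR arrays, but the median was 0.27 within DOX and -0.72 within sen. Sqle, squalene epoxidase, differed by -0.91 (adjusted p = 0.228 by limma). Npc1 and Gabarapl1, genes of lysosomal cholesterol export and of autophagy, did not overlap between the groups and were 1.73-fold and 2.14-fold higher (adjusted p of 0.0594 and 0.0778 in limma). Tfeb, the master regulator of lysosome genes, did not overlap in the other direction (log2 difference -0.43, adjusted p = 0.096). Over 22 lysosome and autophagy genes, 3 were higher and 3 lower at an unadjusted p under 0.05, against 8.09% and 11.5% of all genes. The median difference over the 22 was 0.14 and turned between the naming sets (-0.11 within DOX, 0.38 within sen).

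Inflammatory genes showed little common direction. Over 19 NF-kB targets the median difference was 0.23, with Tnf at 0.73 and Tnfaip3, which ends NF-kB signalling, at 0.94 (adjusted p of 0.123 and 0.213 in limma). Over 32 interferon response genes it was -0.09 (-0.11 within DOX, 0.099 within sen). Irf1, an interferon-induced factor, differed by -0.54 on untreated arrays (adjusted p = 0.127 by limma), and its groups did not overlap on ADR arrays, at 7.75 against 8.41. Over 31 genes of the senescence-associated secretory phenotype the median difference was 0.08, with Vegfa at 0.75 (adjusted p = 0.277 by limma). Id2, a TGF-beta target that blocks basic helix-loop-helix factors, differed by 1.04 (adjusted p = 0.196). Pdia4, a folding enzyme of the endoplasmic reticulum, differed by -0.90 and Shmt2, a mitochondrial enzyme of serine use, by -0.50 (adjusted p of 0.115 and 0.126 in limma).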
